A study of Mus musculus with 18 samples.

Results

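The genes described here are 10 of 19937 genes that have a probe set of their own on the array: Gclc, Gclm, Gsr, Gsta4, Txnrd1, Srxn1, Hmox1, Nqo1, Osgin1 and Nfe2l2. They are widely used targets of the transcription factor NRF2 and genes of glutathione synthesis and recycling, with Nfe2l2, the gene of NRF2 itself. Each was taken as the probe set annotated to its symbol alone, 1 per gene, and all 10 were among the 15711 genes bright enough to be tested. Total RNA of mouse embryonic fibroblasts (MEFs) of strain 129sv/ev was read on 18 Affymetrix arrays, 3 per group, numbered 1, 2 and 4 in the titles. The groups were Nfat5 knockout (KO) cells in hypertonic and in isotonic medium, wild-type (WT) cells in hypertonic and in isotonic medium after 1 h with 100 nM Torin1, an inhibitor of the kinase mTOR, and WT cells in hypertonic and in isotonic medium without Torin1. The titles write 500 for hypertonic and 300 for isotonic medium without a unit, and the time spent in hypertonic medium is not given in the labels. The labels name 1 KO line and 1 WT line, so the effect of losing Nfat5 and any other difference between these lines cannot be told apart. Levels and changes are on the log2 scale of the deposited signals throughout, so a change of 1 is a doubling of the signal.

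NRF2 is held low in unstressed cells by KEAP1, which hands it to a CUL3 ubiquitin ligase. Oxidants and electrophiles modify KEAP1, NRF2 then accumulates, pairs with a small MAF protein and binds antioxidant response elements (AREs) before genes of glutathione, thioredoxin, heme and quinone metabolism, while BACH1 competes for the same elements and holds Hmox1 down. GCLC and GCLM are the catalytic and modifier subunits of glutamate-cysteine ligase, the limiting enzyme of glutathione synthesis, and NFAT5 is the transcription factor that switches on osmolyte genes in hypertonic medium.

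Promoter windows show how far the ARE letters reach among these genes. RefSeq windows of GRCm38.p6, from 250 bases before to 50 after a gene's start, were on hand for 6 of the 10 members, 8 windows in all. The ARE core was searched on both strands as TGACNNNGC and as TGAGNNNGC, the second form added after the windows had been read. At least 1 of these forms was found in a window of Gclm, Txnrd1, Srxn1, Osgin1 and Nfe2l2 and not in that of Nqo1. Of all 32851 windows 27.8% hold at least 1, a share by window and not by gene. Txnrd1 has 3 windows and the match lies in the second alone, 92 bases before that start. The match of Osgin1, of the second form only, lies 99 bases before its start. It overlaps the AP-1 motif TGANTCA, which was also added after the windows had been read. The core TGGAAA shared by NFAT5 sites, in neither direction found in any of the 8 windows, occurs in 21.4% of all windows. The following stretches, shown for a gene that responded in hypertonic KO cells (Gclm), for 2 that did not pass (Srxn1 and Nfe2l2) and for the window without a match (Nqo1), are given 5′ to 3′ on the strand of the gene, with the ARE core in capitals. The stretch of Gclm, chr3:122245307-122245486 on the plus strand, is 180 bases long and ends short of the start. This stretch holds TGACNNNGC on the other strand 134 bases before the start. That of Srxn1, chr2:152105274-152105523 on the plus strand, holds TGAGNNNGC 158 and 45 bases before the start, and the match at 45 overlaps the AP-1 motif TGANTCA, found in 7.81% of all windows. That of Nfe2l2, chr2:75704664-75704913 on the minus strand, holds TGACNNNGC 240 bases before the start, and that of Nqo1 is chr8:107403206-107403455 on the minus strand.
Gclm: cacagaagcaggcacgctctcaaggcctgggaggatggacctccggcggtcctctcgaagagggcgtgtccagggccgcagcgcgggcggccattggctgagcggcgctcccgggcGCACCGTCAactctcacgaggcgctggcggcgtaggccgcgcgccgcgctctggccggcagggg
Srxn1: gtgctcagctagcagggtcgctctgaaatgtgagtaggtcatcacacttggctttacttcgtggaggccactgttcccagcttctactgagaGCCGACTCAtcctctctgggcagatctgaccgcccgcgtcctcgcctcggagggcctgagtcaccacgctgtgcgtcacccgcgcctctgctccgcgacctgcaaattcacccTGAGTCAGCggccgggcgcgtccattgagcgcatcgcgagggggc
Nfe2l2: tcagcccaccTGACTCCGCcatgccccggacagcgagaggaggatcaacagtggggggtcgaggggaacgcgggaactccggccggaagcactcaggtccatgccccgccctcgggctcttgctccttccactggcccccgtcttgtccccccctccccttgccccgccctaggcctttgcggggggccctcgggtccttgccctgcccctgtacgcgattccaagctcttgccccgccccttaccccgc
Nqo1: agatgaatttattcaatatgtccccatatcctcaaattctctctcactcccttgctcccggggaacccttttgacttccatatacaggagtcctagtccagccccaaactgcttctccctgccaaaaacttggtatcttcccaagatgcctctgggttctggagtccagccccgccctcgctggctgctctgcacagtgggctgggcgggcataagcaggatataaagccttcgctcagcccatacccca

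Median signals of the arrays lay between 6.96 and 7.13, and arrays of a group correlated at 0.982 to 0.998 over genes. Nfat5 read 9.72 to 10.22 in the 6 KO arrays and 9.94 to 10.77 in the 12 WT arrays, which overlap, and its KO minus WT difference of -0.44 in hypertonic medium did not pass (limma adjusted p = 0.0503), though it did in a fit that took the array number as a block (0.00591), called the blocked fit below. In isotonic medium the difference was -0.26 (limma adjusted p = 0.367), and this probe set need not cover the deleted part of the gene, so it does not check the genotype. The array titled KO, isotonic, number 1 carries a wild-type genotype label and was kept with the KO group. Its Gsta4 signal of 10.74 lay beside the 10.71 of KO isotonic array 2, with KO isotonic array 4 at 8.43. The WT arrays all lay between 6.20 and 7.70. Gsta4 is also compared between the lines below with this array, so its level is not a separate check of the label. Of 8 fibroblast markers all passed the filter, and the array means of the list lay between 11.69 and 12.01 in the KO line and between 10.25 and 10.64 in the WT line, led by Thy1, which was higher in KO cells by 4.01 in hypertonic and 3.88 in isotonic medium. The macrophage list had 4 of 6 members past the filter, with Ptprc and Adgre1 below it, and array means between 6.65 and 6.93 in the KO line and between 6.45 and 6.93 in the WT line. Means of the epithelial, endothelial, muscle and pluripotent lists lay between 5.40 and 7.22 in all arrays, and the part of these lists in the results was not tested. In such bulk RNA, fewer cells of a type and less RNA per cell cannot be told apart.

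**Figure D1:**
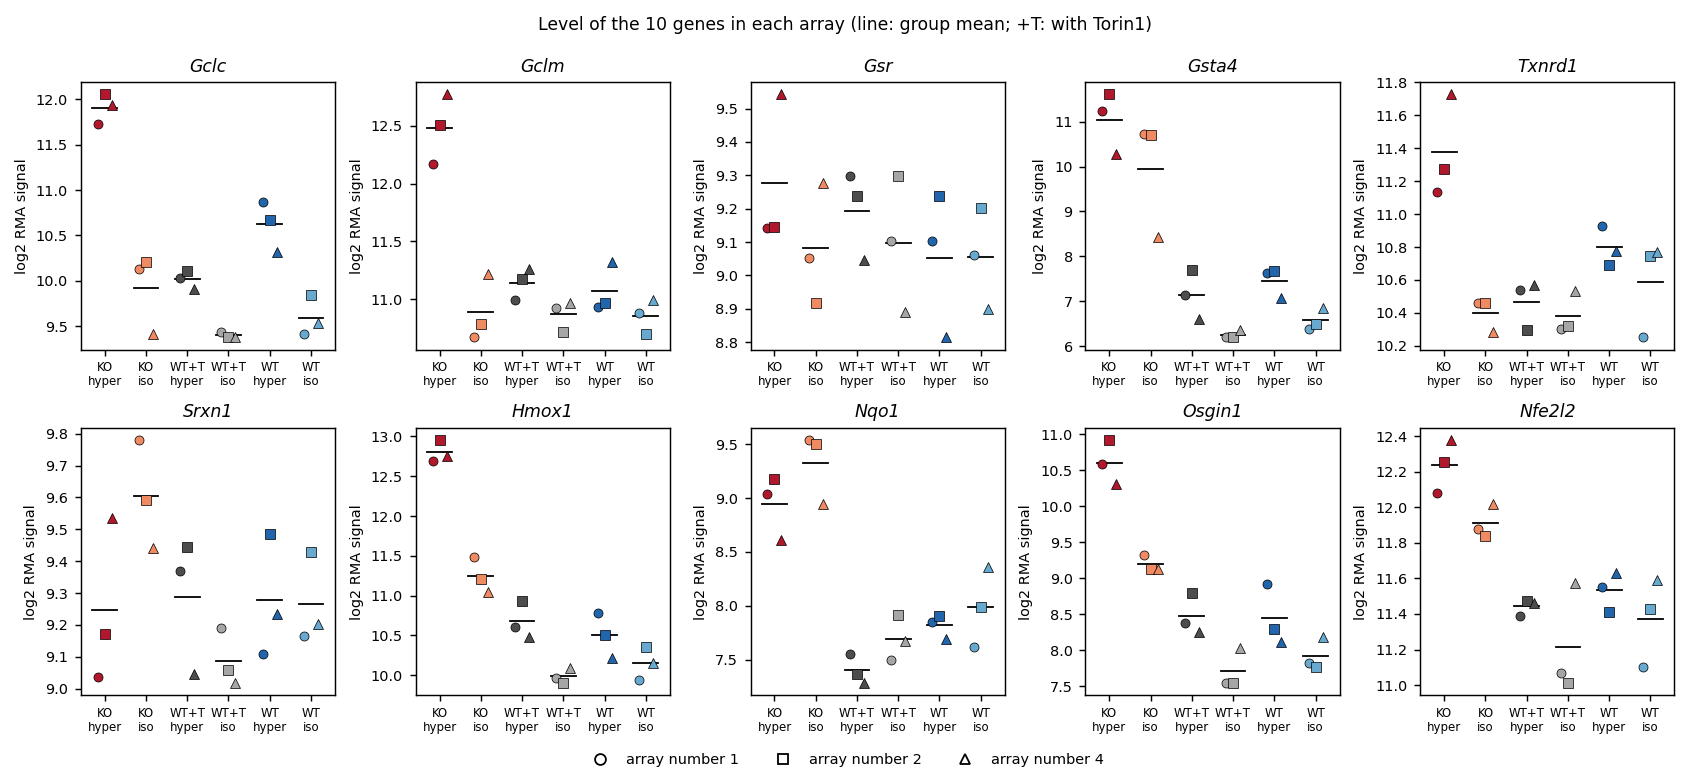
Log2 signal of the 10 genes in each of the 18 arrays, by group along the x axis, with the group mean as a line and the array number as the symbol (+T marks Torin1). Gclc, Gclm, Txnrd1, Hmox1 and Osgin1 are highest in the 3 hypertonic KO arrays, Gsta4 and Nqo1 separate the lines in both media, and Gsr overlaps across the groups.

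Hypertonic medium raised 5 of the 10 genes in KO cells: Gclc, Gclm, Txnrd1, Hmox1 and Osgin1, by 0.98 to 1.99 (n = 3 arrays per group). Of all genes tested 12.9% were called higher in this comparison, where a call is a limma adjusted p below 0.05. No member was called lower, and at an unadjusted p below 0.05 limma counted 7 higher and 1 lower. The median change of the 10 was 1.03, beside 0.02 over all genes, and with every array set to a common median over genes these were 1.18 and 0.18. Of all genes 17.2% were called lower, and the arrays of the media did not overlap in 45.6%.

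Glutathione synthesis had the largest changes. Gclc read 11.73, 12.05 and 11.94 in hypertonic KO arrays 1, 2 and 4, against 10.13, 10.21 and 9.42 in isotonic KO arrays. The groups were well apart, with array 4 the lowest of the isotonic arrays, and the change was 1.99 ± 0.19 (standard error), a 3.96-fold rise (limma adjusted p = 3.0e-06). Gclm read 12.17, 12.51 and 12.77 in hypertonic and 10.67, 10.79 and 11.21 in isotonic KO cells. All 3 hypertonic arrays lay above the isotonic ones, and the rise of 1.59 ± 0.17 was 3.02-fold (limma adjusted p = 7.8e-06). Within array numbers 1, 2 and 4 the change was 1.60, 1.84 and 2.52 for Gclc and 1.50, 1.72 and 1.56 for Gclm. Gsr, whose enzyme reduces oxidised glutathione with NADPH, read 9.14, 9.14 and 9.54 in hypertonic and 9.05, 8.92 and 9.28 in isotonic KO cells. The groups overlap, and the change of 0.19 ± 0.15 (95% interval -0.12 to 0.51) did not pass.

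Gsta4, a glutathione transferase that removes the lipid peroxidation product 4-hydroxynonenal, read 11.23, 11.61 and 10.28 in hypertonic and 10.74, 10.71 and 8.43 in isotonic KO cells. Array 4 was the lowest in both media, and the change of 1.08 ± 0.49 did not pass (limma adjusted p = 0.112). In the blocked fit it passed (limma adjusted p = 0.0452), as it did without hypertonic KO array 4 (1.46, 0.0478) and without the 6 arrays numbered 4 (0.70, 0.00378). In the thioredoxin branch Txnrd1, which reduces thioredoxin with NADPH, read 11.13, 11.28 and 11.73 in hypertonic and 10.46, 10.46 and 10.28 in isotonic KO cells. The groups did not overlap, and the change was 0.98 ± 0.16 (limma adjusted p = 0.000252). Srxn1, whose enzyme restores overoxidised peroxiredoxins, read 9.04, 9.17 and 9.54 in hypertonic and 9.78, 9.59 and 9.44 in isotonic KO cells. Its hypertonic arrays tended low with array 4 inside the isotonic range, and the change of -0.36 ± 0.15 did not pass (limma adjusted p = 0.0807). It passed without hypertonic KO array 4 (-0.50, limma adjusted p = 0.0184) and without the arrays numbered 4 (-0.58, 0.00461).

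Hmox1, which breaks heme down to biliverdin, iron and carbon monoxide, read 12.69, 12.95 and 12.76 in hypertonic and 11.49, 11.21 and 11.04 in isotonic KO cells. The groups stood apart by more than the spread of either, and the change was 1.55 ± 0.16 (limma adjusted p = 7.2e-06). Osgin1, an oxidative stress induced growth inhibitor gene, read 10.59, 10.92 and 10.30 in hypertonic and 9.32, 9.13 and 9.12 in isotonic KO cells, a change of 1.41 ± 0.22 (limma adjusted p = 0.00016). Both genes changed upward within each number, Hmox1 by 1.20, 1.74 and 1.71 and Osgin1 by 1.27, 1.78 and 1.18 in numbers 1, 2 and 4. Nqo1, a quinone reductase often read as the measure of NRF2 activity, went the other way without passing. It read 9.04, 9.17 and 8.61 in hypertonic and 9.54, 9.50 and 8.95 in isotonic KO cells, a change of -0.39 ± 0.20 (limma adjusted p = 0.164). The change of Nqo1 was -0.50, -0.33 and -0.33 within the numbers, and it passed without isotonic KO array 4 (-0.58, limma adjusted p = 0.0431) and without the arrays numbered 4 (-0.41, 0.0429). Nfe2l2 read 12.08, 12.25 and 12.38 in hypertonic and 11.88, 11.84 and 12.02 in isotonic KO cells. These groups did not overlap, yet the change of 0.32 ± 0.15 did not pass (limma adjusted p = 0.112) outside the blocked fit (0.0332), the fit to arrays set to a common median (0.0223) and the fit without isotonic Torin1 array 4 (0.0499).

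In WT cells hypertonic medium raised 1 of the 10 genes, Gclc, where 3.94% of all genes were called higher and 4.3% lower, and where the arrays of 25.3% did not overlap. Gclc read 10.87, 10.67 and 10.32 in hypertonic and 9.42, 9.84 and 9.53 in isotonic WT cells. The groups did not overlap and the change was 1.03 ± 0.19 (limma adjusted p = 0.00407), with 1.46, 0.83 and 0.79 within numbers 1, 2 and 4. Its partner Gclm read 10.93, 10.97 and 11.32 in hypertonic and 10.88, 10.70 and 10.99 in isotonic WT cells. The Gclm arrays overlap between the media, and its change of 0.22 ± 0.17 (95% interval -0.14 to 0.57) did not pass. At an unadjusted p below 0.05 limma counted 3 members higher in WT cells and 0 lower, Hmox1 and Osgin1 beside Gclc.

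Hmox1 read 10.78, 10.50 and 10.22 in hypertonic and 9.94, 10.36 and 10.16 in isotonic WT cells. Its change of 0.35 ± 0.16 came mostly from number 1, with 0.84 there against 0.14 and 0.07 in numbers 2 and 4, and did not pass (limma adjusted p = 0.208). Osgin1 read 8.91, 8.30 and 8.12 in hypertonic and 7.82, 7.77 and 8.18 in isotonic WT cells, where array 4 was again unlike the others. Its change of 0.52 ± 0.22 did not pass (limma adjusted p = 0.158), but did without the arrays numbered 4 (0.81, 0.00788). Gsta4 read 7.63, 7.67 and 7.07 in hypertonic and 6.39, 6.49 and 6.85 in isotonic WT cells. Here the media did not overlap in any array, the change of 0.88 ± 0.49 did not pass (limma adjusted p = 0.313), and without the arrays numbered 4 it was 1.22 and passed (0.000287). Within numbers 1, 2 and 4 the Gsta4 change in WT cells was 1.25, 1.19 and 0.22. Limma estimates the spread over all groups, so the standard error of Gsta4 also takes in the spread within the KO groups. Txnrd1 (0.21 ± 0.16), Nfe2l2 (0.16 ± 0.15), Srxn1 (0.01 ± 0.15), Gsr (-0.00 ± 0.15) and Nqo1 (-0.17 ± 0.20) did not pass in WT cells, and the 2 groups overlapped for each of them.

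**Figure D2:**
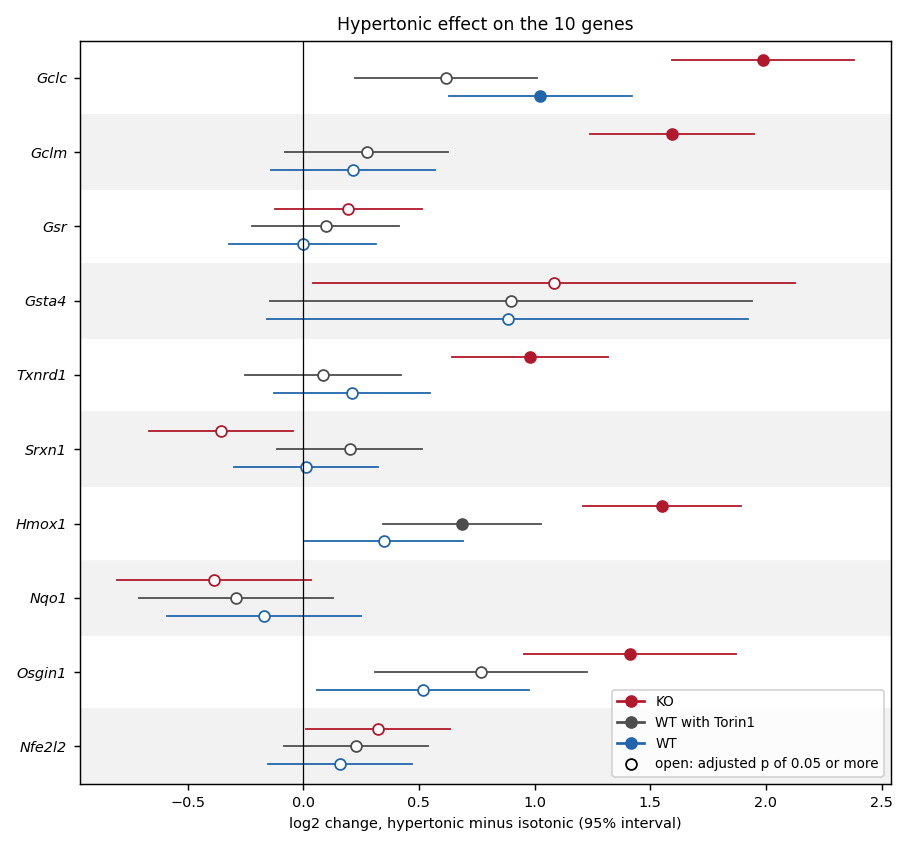
Hypertonic minus isotonic change of the 10 genes in KO cells, WT cells with Torin1 and WT cells, in log2 with 95% intervals from limma (n = 3 arrays per group); filled points have an adjusted p below 0.05. Gclc, Gclm, Txnrd1, Hmox1 and Osgin1 are filled in KO cells, Hmox1 in WT cells with Torin1 and Gclc in WT cells.

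The hypertonic responses of the lines were then compared, KO response minus WT response. Gclm (1.38 ± 0.24, limma adjusted p = 0.00269), Hmox1 (1.20 ± 0.23, 0.00482), Gclc (0.96 ± 0.26, 0.0308) and Txnrd1 (0.77 ± 0.22, 0.0414) rose more in KO cells. These are 4 of 10 members, where 3.35% of all genes were called higher and 6.15% lower in the difference, and none of the 10 was called lower (5 higher and 0 lower at an unadjusted p below 0.05 in limma). For Gclm the difference was 1.45, 1.45 and 1.23 in numbers 1, 2 and 4. For the other 3 the difference was smallest in number 1 and largest in number 4. It was 0.36, 1.60 and 1.65 for Hmox1, 0.15, 1.01 and 1.73 for Gclc and -0.00, 0.87 and 1.44 for Txnrd1. For Gclc it failed once isotonic WT array 2 (limma adjusted p = 0.0802), either of the hypertonic WT arrays 2 (0.062) and 4 (0.0705) or hypertonic KO array 2 (0.0817) was dropped. For Txnrd1 it failed when any 1 of 12 arrays was dropped, with limma adjusted p between 0.052 and 0.109, and after quantile normalization (0.0656). Without the arrays numbered 4, Gclc (0.58, limma adjusted p = 0.0701) and Txnrd1 (0.43, 0.194) did not pass. Osgin1 (0.89 ± 0.30, limma adjusted p = 0.0831) passed once hypertonic WT array 1 (1.13, 0.0192) or hypertonic KO array 4 (1.04, 0.0452) was dropped, or on arrays set to a common median (1.07, 0.0347). The difference did not pass for Gsta4 (95% interval -1.27 to 1.67), Nqo1 (-0.81 to 0.38), Srxn1 (-0.81 to 0.07), Gsr (-0.25 to 0.65) or Nfe2l2 (-0.28 to 0.60). Of these intervals, that of Gsta4 alone holds any of the 4 differences called.

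Torin1 changed none of the 10 genes past the threshold in WT cells. In isotonic medium limma called 0 of 10 members, with 0 at an unadjusted p below 0.05, and 0 of the 15711 genes tested (0%), of which 6.01% had arrays that did not overlap. Member changes there lay between -0.32 for Gsta4, whose arrays did not overlap, and 0.04 for Gsr. In hypertonic medium 0 of 10 members passed in limma, with 1 at an unadjusted p below 0.05, where 0.115% of all genes were called, 0.0573% in each direction. That member was Gclc, which read 10.03, 10.11 and 9.91 in hypertonic arrays with Torin1 against 10.87, 10.67 and 10.32 in hypertonic arrays without it. The groups did not overlap, and the difference of -0.60 ± 0.19 (95% interval -1.0 to -0.21) had a limma adjusted p of 0.172. It was -0.84, -0.56 and -0.41 within the numbers, and passed without the arrays numbered 4 (-0.70, limma adjusted p = 0.0214). Txnrd1 (-0.33 ± 0.16) and Nqo1 (-0.42 ± 0.20) also lay lower with Torin1 in all 3 hypertonic arrays without passing (limma adjusted p = 0.424 and 0.416). Of all genes 15.6% had hypertonic arrays that did not overlap between Torin1 and no Torin1.

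Under Torin1 hypertonic medium raised Hmox1, 1 of 10 members where 1.65% of all genes were called higher and 3.37% in either direction, and where 20.2% had arrays that did not overlap. Hmox1 read 10.61, 10.93 and 10.49 in hypertonic and 9.97, 9.90 and 10.10 in isotonic WT cells with Torin1. The groups did not overlap and the change was 0.69 ± 0.16 (limma adjusted p = 0.0272), but it failed once isotonic Torin1 array 1 (0.0924), 2 (0.0947) or 4 (0.0534) or hypertonic Torin1 array 1 (0.0563) or 2 (0.149) was dropped. Gclc read 10.03, 10.11 and 9.91 in hypertonic and 9.44, 9.38 and 9.38 in isotonic cells with Torin1, and Osgin1 read 8.37, 8.79 and 8.25 in hypertonic and 7.54, 7.54 and 8.03 in isotonic ones. In both genes the hypertonic arrays were the higher, and the changes of 0.62 ± 0.19 for Gclc and 0.77 ± 0.22 for Osgin1 did not pass (limma adjusted p = 0.082 and 0.0636) but did in the blocked fit (0.0267 and 0.0461) and without the arrays numbered 4 (0.012 and 0.00368). Gclc also passed without isotonic KO array 4 (0.0247), and Osgin1 after quantile normalization (0.0374) or without hypertonic WT array 1 (0.0343) or 4 (0.0485). Gsta4 (0.90 ± 0.49) and Gclm (0.27 ± 0.17) had no overlap of arrays either and did not pass (limma adjusted p = 0.399 and 0.467). Without the arrays numbered 4 Gsta4 passed (1.22, limma adjusted p = 0.000514). Blocking brings the members called in this comparison to 3, and the count of all genes called from 530 to 1235. Whether Torin1 alters the hypertonic response was tested as a difference of differences, in which limma called 0 of 10 members, 0 at an unadjusted p below 0.05, and 0% of all genes. The interval of that difference was -0.96 to 0.15 for Gclc and -0.15 to 0.82 for Hmox1.

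The KO line stood above the WT line for 8 of 10 members in hypertonic medium, where 13.8% of all genes were called higher, and for 5 of 10 in isotonic medium, where 7.78% were called higher and 6.84% lower. No member was lower in limma, with 8 higher and 0 lower at an unadjusted p below 0.05 in hypertonic and 6 higher and 0 lower in isotonic medium. These comparisons share their arrays with the hypertonic comparisons above. Gsta4 differed by 3.58 ± 0.49 in hypertonic and 3.38 ± 0.49 in isotonic medium, the isotonic difference being 10.4-fold (limma adjusted p = 5.5e-05 and 0.000143). In isotonic medium the Gsta4 difference was 4.35, 4.22 and 1.58 in numbers 1, 2 and 4, with every KO array above every WT array. Nqo1 differed by 1.12 ± 0.20 in hypertonic and 1.34 ± 0.20 in isotonic medium (limma adjusted p = 0.000466 and 0.00017), from 9.54, 9.50 and 8.95 in isotonic KO against 7.62, 7.99 and 8.36 in isotonic WT arrays. Array 4 was the lowest of the KO and the highest of the WT arrays, so the difference was smallest in that number, 0.59 against 1.92 and 1.51.

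Hmox1 and Osgin1 separated the lines in both media as well as rising in hypertonic KO cells. Hmox1 differed by 2.30 ± 0.16 in hypertonic and 1.09 ± 0.16 in isotonic medium (limma adjusted p = 5.9e-08 and 0.000163). Osgin1 differed by 2.16 ± 0.22 and 1.27 ± 0.22 in the same media (limma adjusted p = 2.7e-06 and 0.000634). Nfe2l2 differed by 0.70 ± 0.15 in hypertonic medium (limma adjusted p = 0.00173) and by 0.54 ± 0.15 in isotonic medium (0.02). Its isotonic arrays read 11.88, 11.84 and 12.02 in KO against 11.10, 11.43 and 11.59 in WT cells, which failed to pass once isotonic WT array 1 (0.40, 0.105) or isotonic KO array 4 (0.48, 0.0737) was dropped. Gclc, Gclm and Txnrd1 differed in hypertonic medium, by 1.28 ± 0.19, 1.41 ± 0.17 and 0.58 ± 0.16 (limma adjusted p = 9.0e-05, 1.4e-05 and 0.0105), the last call lost without hypertonic KO array 4 (0.41, 0.0531) or the arrays numbered 4 (0.39, 0.0514). In isotonic medium their differences of 0.32 ± 0.19, 0.03 ± 0.17 and -0.19 ± 0.16 did not pass, though Gclc did without isotonic KO array 4 (0.57, limma adjusted p = 0.0221). Srxn1 (-0.03 ± 0.15 and 0.34 ± 0.15) and Gsr (0.22 ± 0.15 and 0.03 ± 0.15) did not pass in hypertonic or isotonic medium. With isotonic KO array 1 counted as WT, as its genotype label has it, 0 of 10 members and 0 of all genes were called between the isotonic lines. The fibroblast list means of the isotonic KO arrays, this array included, lay between 11.86 and 12.01. Those of the isotonic WT arrays lay between 10.33 and 10.64, so this refit puts an array with the marker level of the KO line among the WT arrays.

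**Figure D3:**
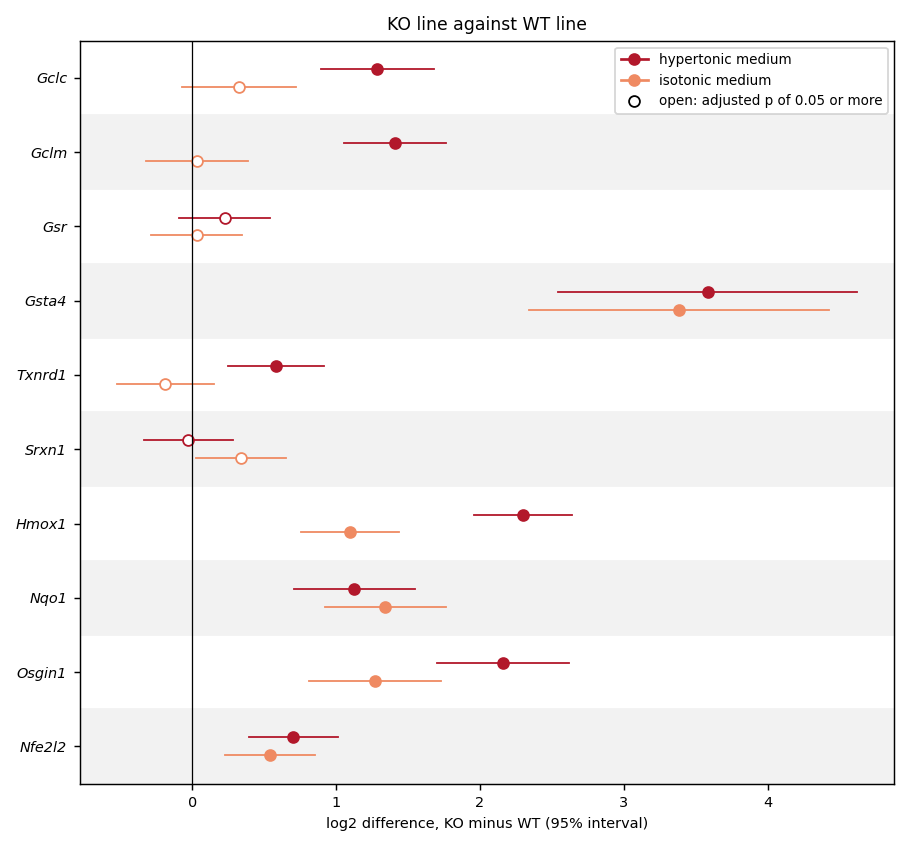
KO minus WT difference of the 10 genes in hypertonic and isotonic medium, in log2 with 95% intervals from limma (n = 3 arrays per group); filled points have an adjusted p below 0.05. Gsta4, Nqo1, Hmox1, Osgin1 and Nfe2l2 are filled in both media, and Gclc, Gclm and Txnrd1 in hypertonic medium.

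Ordered by group mean, 8 of the 10 genes were highest in hypertonic KO cells, and Nqo1 and Srxn1 were highest in isotonic KO cells. Hmox1, Osgin1 and Nfe2l2 shared the order hypertonic KO, isotonic KO and then the WT groups, with no overlap of arrays between hypertonic KO, isotonic KO and the next group, while the 4 WT groups overlapped from neighbour to neighbour. Gclc had 2 such steps, with 11.91 ± 0.16 in hypertonic KO, 10.62 ± 0.28 in hypertonic WT and 10.02 ± 0.10 in hypertonic WT cells with Torin1 (SD, n = 3 each), below which neighbours overlapped. Gsta4 and Nqo1 had a step between the KO groups and the WT groups, and Gsta4 had a further step between isotonic WT cells without and with Torin1. Gclm and Txnrd1 had 1 step, under hypertonic KO cells, and Gsr and Srxn1 had none. Across the 18 arrays the closest pair of members was Hmox1 and Osgin1 (Pearson r = 0.98), and Gclc and Gclm had r = 0.83. After the group means were removed these were 0.71 and -0.55. The points share arrays, array numbers and the large step at hypertonic KO cells.

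Of 77 further genes of the NRF2 and glutathione system, listed by role with earlier results of these data known, 71 were tested. In hypertonic KO cells 12 rose and 10 fell, a share near that of all genes (30.1% called in either direction), and their median change was 0.00 beside 0.02 over all genes. Regulators of NRF2 and its partners had 6 of 8 members higher, with a median of 0.59. Mafk, Mafg and Maff, the small MAF proteins that pair with NRF2 or BACH1, rose by 1.30 ± 0.14, 0.95 ± 0.12 and 1.12 ± 0.30 (limma adjusted p = 7.5e-06, 4.0e-05 and 0.00993), the last failing once isotonic KO array 2 was dropped (0.88, 0.0572). Bach1, the repressor of Hmox1, read 10.85, 10.98 and 10.74 in hypertonic KO cells, all above the isotonic KO arrays, of which none passed 10.28, and rose by 0.67 ± 0.13 (limma adjusted p = 0.000857). Sqstm1, whose product p62 draws KEAP1 into autophagy, rose by 0.52 ± 0.16 (limma adjusted p = 0.0182), failing once KO array 2 of either medium (isotonic 0.0519, hypertonic 0.0521) or isotonic KO array 4 (0.0557) was dropped, and Keap1 did not pass (-0.03 ± 0.09). In WT cells 0 of the 8 regulators passed in limma, with 1 at an unadjusted p below 0.05 and changes between -0.05 and 0.30, where 8.24% of all genes were called, so that 0 of 8 lies near the background. The response differed between the lines for Mafk (1.01 ± 0.19, limma adjusted p = 0.00496), Mafg (0.88 ± 0.17, 0.00548) and Bach1 (0.67 ± 0.18, 0.0279), the last failing when any 1 of 7 arrays was dropped (adjusted p between 0.0565 and 0.0774). The blocked fit called 5 of the 8 regulators in this difference, adding Sqstm1 (0.56, limma adjusted p = 0.0279) and Cul3 (0.47, 0.026). Of all genes tested it called 2280 in this difference, against 1492 without the block.

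Other roles moved less together in hypertonic KO cells. Me1 and Pgd, which supply NADPH, rose by 0.57 ± 0.10 and 0.50 ± 0.11 (limma adjusted p = 0.000534 and 0.00229), and the Me1 response was higher in KO than in WT cells by 0.67 ± 0.14 (0.00921). Ftl1, a ferritin light chain gene with near-identical copies in the genome, rose by 0.83 ± 0.15, while Blvra, which turns biliverdin into bilirubin, fell by 0.81 ± 0.16 (limma adjusted p = 0.000769 and 0.00129). Esd and the carbonyl reductase gene Cbr3 rose by 0.81 ± 0.18 and 0.63 ± 0.18 (limma adjusted p = 0.00286 and 0.0124), Cbr3 by 0.37 with hypertonic KO array 4 dropped, and it failed with isotonic KO array 2 dropped (0.0625). Abcc1, which exports glutathione conjugates, rose by 0.44 ± 0.14 (limma adjusted p = 0.0213), failing once isotonic KO array 1 (0.0659) or 2 (0.0796) or hypertonic KO array 2 (0.0669) or 4 (0.0506) was dropped. Genes of glutathione use had 3 of 21 members lower and 0 higher in limma (1 higher at an unadjusted p below 0.05), led by the transferase gene Gstt3 at -1.16 ± 0.11 (limma adjusted p = 3.2e-06), and thioredoxin and peroxide genes had 3 of 12 lower and 0 higher (2 higher unadjusted), among them Txnrd3 at -0.84 ± 0.23 and Prdx3 at -0.55 ± 0.11 (0.0106 and 0.00128). Over all genes 17.2% were called lower and 12.9% higher. The counts of lower genes lie near the share called lower. The 0 called higher in both roles lies below the share called higher, a gap that was not tested. The cystine carrier gene Slc7a11, which brings in the substrate of glutathione synthesis, read 9.05, 9.46 and 10.28 in hypertonic and 8.52, 8.10 and 8.90 in isotonic KO cells. Its arrays did not overlap, yet its change of 1.09 ± 0.59 did not pass (limma adjusted p = 0.193), with isotonic WT arrays 1, 2 and 4 spread over 5.63, 9.08 and 7.42. The change passed in the fit to only the groups compared (0.0442). The KO minus WT difference of Slc7a11 in hypertonic medium, 1.56 ± 0.59, did not pass (limma adjusted p = 0.0565) but did in several alternatives, among them the blocked fit (0.0369). Gss, the second enzyme of glutathione synthesis (0.40 ± 0.30, limma adjusted p = 0.359), passed in the blocked fit (0.0408). Txn1 (-0.06 ± 0.07), Prdx1 (0.26 ± 0.12) and Fth1 (0.00 ± 0.18) did not pass.

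In hypertonic WT cells 2 of the 71 genes rose and 5 fell (8.24% of all genes were called), or 3 and 11 in the blocked fit. The background rose too, with 2360 of all genes tested called in the blocked fit against 1295 without the block. Glrx, which removes glutathione from proteins, rose by 0.77 ± 0.18 and Cbr1 by 0.36 ± 0.09 (limma adjusted p = 0.0176 and 0.0284), and Blvrb, a biliverdin and flavin reductase gene, fell by 0.68 ± 0.11 (0.00255). Glrx failed once isotonic WT array 1 (0.0741) or 2 (0.0674) or hypertonic WT array 1 (0.0528) or 2 (0.0746) was dropped, and Cbr1 once any 1 of the 6 arrays compared was. These 7 calls became 1 when hypertonic WT array 1 was dropped, 3 when array 2 of either medium was and 4 when isotonic WT array 1 or 4 was.

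The lines differed more widely in this system. In hypertonic medium 31 of the 71 genes were higher and 5 lower in KO cells (31.9% of all genes were called), and in isotonic medium 19 were higher and 3 lower (14.6%), with medians of 0.38 and 0.20 beside 0.04 and 0.02 over all genes. Detoxication genes had 7 of 8 members higher in hypertonic and 6 of 8 in isotonic medium. Aldh3a1, an aldehyde dehydrogenase gene, was higher in both media (limma adjusted p = 1.0e-05 in hypertonic and 7.4e-07 in isotonic medium), but no size is given, since its means of 5.86 in hypertonic and 5.69 in isotonic WT cells lay at or below the filter on dim genes, set at 5.86. The epoxide hydrolase gene Ephx1 differed by 1.19 ± 0.10 in hypertonic medium (4.2e-07), and Cbr1 by 0.95 ± 0.09 in isotonic medium (2.7e-06). Mgst1, a membrane-bound glutathione transferase gene, read 11.80, 11.67 and 12.44 in hypertonic KO against 5.66, 5.85 and 8.70 in hypertonic WT arrays, and 11.74, 11.48 and 12.24 in isotonic KO against 5.96, 5.58 and 8.86 in isotonic WT arrays. Its KO arrays were all higher, by 5.24 ± 1.07 and 5.02 ± 1.07 (limma adjusted p = 0.00149 and 0.00395), and array 4 was the highest of each group. WT arrays 1 and 2 of Mgst1 lay near the filter of 5.86 in both media, so these sizes rest in part on dim signals. Oplah, which opens the 5-oxoproline of the glutathione cycle, differed by 2.09 ± 0.20 and 2.55 ± 0.20, and Gstm2, one of a family of near-identical Gstm genes whose signals may not be fully separate, by 2.18 ± 0.26 and 2.22 ± 0.26 in hypertonic and isotonic medium. In isotonic medium Maff (-1.04 ± 0.30) and Mafk (-0.44 ± 0.14) were lower in KO cells (limma adjusted p = 0.0288 and 0.0389). Maff failed once isotonic WT array 1 (0.0556) or 4 (0.119) or isotonic KO array 1 (0.115) or 2 (0.147) was dropped, and Mafk once isotonic WT array 2 (0.109) or 4 (0.149), isotonic KO array 1 (0.0979) or 2 (0.145) or hypertonic KO array 2 (0.051) was.

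**Figure D4:**
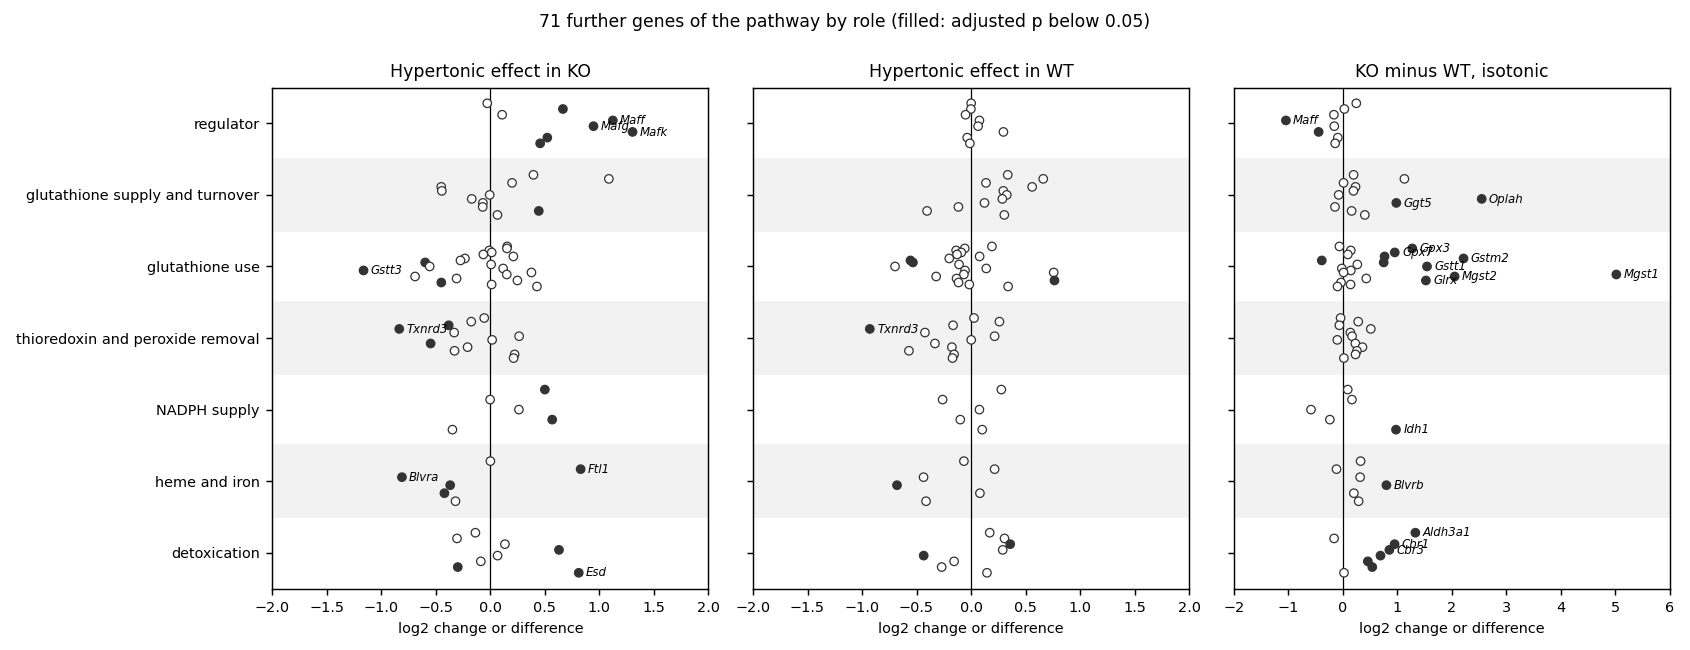
Log2 change or difference of the 71 tested genes of the wider NRF2 and glutathione system, in rows by role, for the hypertonic effect in KO cells, the hypertonic effect in WT cells and KO minus WT in isotonic medium; filled points have a limma adjusted p below 0.05 and those of at least 0.8 in size are named. Regulators lie to the right in hypertonic KO cells (6 of 8 higher), and the detoxication genes lie to the right between the isotonic lines (6 of 8 higher).

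Among the other genes tested, the profile over the 18 arrays closest to the mean of Gclc and Gclm was that of Mdm2, whose product marks p53 for breakdown (Pearson r = 0.98). Tph2, Tmprss7, Muc2, Tnfsf13b, Slc23a3, Prdm15 and Tmem236 came next, with r between 0.96 and 0.97. Within groups, after the group means were removed, these 8 genes had r between -0.19 and 0.83. Closest to Hmox1 were the probe set of the Mir224 hairpin, Tent5c, Nr2f1, Tent5b, Nus1, Prkaa1, Notch1 and Depdc7 (r from 0.95 to 0.97), and their r within groups was -0.05 to 0.66. The profiles of Gclc, Gclm and Hmox1 all step up at hypertonic KO cells, so genes ranked this way share that step by their choice.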

How the data were processed

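Total RNA of 18 MEF samples was hybridised to Affymetrix mouse gene arrays. The authors deposited log2 signals summarised by RMA, and the submitters' processing notes name R 2.11.1. The genome build behind these signals is not stated in any source used here. All 34760 probe sets of the deposited table were read, and nothing was normalized further. Platform annotation gave 21640 probe sets 1 gene, 1321 several and 11799 none. Each of 19937 genes was its probe set with the highest mean, and genes whose highest group mean exceeded the 30th percentile of all values (5.86) were tested, 15711 in all. Array counts, 3 per group, limit the precision.

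limma 3.58.1 in R 4.3.3 fitted 1 mean per group to all 18 arrays (12 residual and 3.29 prior degrees of freedom). 9 contrasts had moderated tests with Benjamini-Hochberg adjustment over all genes within a contrast, and a gene was called below 0.05. Standard errors are limma's. On simulated data of 15711 genes for the hypertonic effect in WT, 91 of 100 genes changed by 1 and 98 of 100 changed by 2 were recovered, and 10 of 199 calls were false. Nothing in the labels says that a group's arrays were grown apart, and p-values then cover the spread between arrays alone, which may be technical. Arrays of the same number in groups compared directly correlated, after removal of group means, at r from 0.156 to 0.847 in all 21 pairs. A pairing by number was thus read from the data, not from the labels, and the main fit did not use it. In the pair of hypertonic KO and isotonic WT arrays 1, which meet only in the difference of responses, r was 0.0945. Every result was refitted with the number as a block.

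The members and gene lists were chosen with earlier results of these data known. Genes were named by rule: all members, in each contrast up to 2 called genes per role of the wider list with the largest changes, a few fixed ones, and the 8 nearest profiles to Gclc and Gclm and to Hmox1. The text leaves out some of these. Gsta1, Gsta2, G6pdx, Prdx5 and Prdx6 share their probe sets with other names or have none in the annotation and were not used here, and Gsta3 did not pass the filter. Alternatives were no filter or the 50th percentile, averaging the probe sets of a gene, quantile normalization, arrays set to a common median, a trended and robust prior, only the groups of a contrast, the block, isotonic KO array 1 as WT, the 6 arrays numbered 4 left out, and each array left out in turn. Promoter windows are from RefSeq, GRCm38.p6.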

Additional observations from a re-analysis of the deposited data

Results flagged for a closer look

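The hypertonic response of 4 members differed between the KO and the WT line in limma. Gclm rose more in KO cells by 1.38 (limma adjusted p = 0.00269), Hmox1 by 1.20 (0.00482), Gclc by 0.96 (0.0308) and Txnrd1 by 0.77 (0.0414), each tested as a difference of differences between 4 groups in the fit to all 18 arrays. Dropping a single array ended the call for Gclc and for Txnrd1, and for neither Gclm nor Hmox1. No test for outlying arrays was run within the groups of 3, beyond the fits that left out each array in turn or the arrays numbered 4.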

How the results depend on the processing

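Of the results recomputed, 0 turned to the other direction as a call. Counts of members called that moved by over 1.5 times were these. Without the 6 arrays numbered 4, limma called 3 members instead of 1 for the hypertonic effect in WT, 4 instead of 1 in WT with Torin1, 8 instead of 5 in KO, 1 instead of 0 for Torin1 in hypertonic WT and 2 instead of 4 for the KO minus WT response. The members added in KO were Gsta4, called higher, and Srxn1 and Nqo1, called lower. A fit to only the groups compared gave 0 in WT with Torin1 and 2 for the KO minus WT response. In WT with Torin1, quantile normalization gave 2 and the replicate block 3. Counting isotonic KO array 1 as WT gave 0 in WT with Torin1 and 0 between the isotonic lines. Dropping 1 array at a time gave 0 to 2 in WT with Torin1 and 2 to 5 for the KO minus WT response. The cause of these moves was not tested, beyond the smaller number of arrays where arrays were dropped. Counts of all genes called moved by over 1.5 times in several fits: for the hypertonic effect in WT they were 1295, against 267 with only the groups compared and 2360 with the block, in WT with Torin1 530 against 23 and 1235, for the KO minus WT response 1492 against 2280 with the block, for Torin1 in hypertonic WT 18 against 0 and 220, and between the isotonic lines 2298 against 0 with isotonic KO array 1 as WT. Without the arrays numbered 4 they were 3335, 1555, 2804, 748 and 3810 in the same order. Smaller moves were 7 with the block and 6 on arrays set to a common median instead of 5 in KO, and, without the arrays numbered 4, 6 instead of 5 between the isotonic and 7 instead of 8 between the hypertonic lines. Between the isotonic lines only the groups compared gave 4. For the KO minus WT response quantile normalization and isotonic KO array 1 as WT gave 3, and arrays set to a common median 5. Members whose call the block changed are all named in the report. Groups of 3 arrays and the unstated origin of the arrays limit the precision.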
